A study of Mus musculus with 30 samples.

Results

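The genes described here place, remove or act on methyl and acetyl marks of histones and methyl marks of DNA, or belong to the SWI/SNF family of nucleosome remodellers, in spleen and lymph node of HIV-1 transgenic mice. They are the 83 genes, of 19938 with a probe set of a single gene symbol, whose symbol begins with Kmt, Setd, Ezh, Kdm, Prmt, Hdac, Sirt, Dnmt or Smarc, or is Tet1, Tet2 or Tet3. Kdm5c, Kdm5d and Kdm6a were left out, and where a gene had several probe sets the one with the highest mean was used. Total RNA of whole spleen and of lymph node was hybridised to Affymetrix Mouse Gene ST arrays. The Tg26 mice with lymphoma (6) and the asymptomatic Tg26 mice (6) were heterozygous for a transgenic pNL4-3 HIV-1 provirus that lacks a stretch of gag-pol and makes no infectious virus; lymphoma arises in a minority of such mice, in a colony bred from heterozygotes with skin lesions. The FVB/N mice (3) carried no provirus, and all mice were on the FVB/N background and were killed at 5 to 12 months. Each of the 15 mice gave 1 spleen and 1 lymph node array, 30 in all, in the 6 groups of lymphoma, asymptomatic and FVB/N spleen and lymphoma, asymptomatic and FVB/N lymph node. Mice 1 to 3 of each group were in batch A of the labels and mice 4 to 6 in batch B, which holds no FVB/N mouse. Replicates were separate mice.

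Marks on histone tails and on cytosine help to set which genes a cell can use. Methyltransferases (writers) place them, demethylases and deacetylases (erasers) take histone marks off, Tet enzymes oxidise methylcytosine, and SWI/SNF complexes use ATP to move nucleosomes, with Smarca4 (Brg1) or Smarca2 (Brm) as their motor. In B lymphocytes Ezh2 and Dnmt1 are known to be high in dividing precursors and germinal centre cells and low in resting cells.

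All values are log2 levels, on which 1 unit is a 2-fold change, and each gene was compared between samples and not with other genes. A measured difference is the difference of group means. A fitted difference comes from a limma model with the 6 groups and 6 surrogate variables. These are patterns shared by many genes, weighted towards genes not linked to the groups. They can still differ between groups, so a fitted difference can depart from the measured one. The p of a fitted difference was adjusted by the Benjamini-Hochberg method over all 19938 genes, and a gene was called at an adjusted p under 0.05. A batch-term value comes from the same model with the labels' batch instead of surrogate variables. Counts of genes with an unadjusted p under 0.05 were made for the genes described here alone, without a share over all genes.

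The groups also differed in markers of other cells. Of 16 measured T cell genes, 15 fell with lymphoma in each tissue, and their mean level per array was 6.33 to 7.50 in lymphoma spleens against 9.51 to 9.80 in asymptomatic spleens, and 6.46 to 7.82 in lymphoma nodes against 8.65 to 10.48 in asymptomatic nodes. Proliferation genes were higher (22 of 23 in spleen and 23 in node), at 9.07 to 10.26 in lymphoma spleens against 7.64 to 8.31 in asymptomatic spleens, and 9.59 to 10.23 in lymphoma nodes against 7.70 to 8.27 in asymptomatic nodes. Early B precursor genes were higher as well (10 of 12 in each tissue), at 9.76 to 10.28 in lymphoma spleens against 7.20 to 7.50 in asymptomatic spleens, and 10.08 to 10.48 in lymphoma nodes against 7.24 to 8.06 in asymptomatic nodes. Of 9 general B lineage genes, 4 fell in spleen, and 3 rose and 4 fell in node. Their mean level was 8.66 to 10.23 in lymphoma spleens against 10.76 to 11.24 in asymptomatic spleens. In nodes it was 8.88 to 9.78 with lymphoma against 9.57 to 10.84 in asymptomatic mice. Of 10 macrophage genes, 0 were called in spleen and 2 fell in node. Their mean was 6.68 to 7.89 in lymphoma nodes against 7.25 to 9.715 in asymptomatic nodes. In node 7 of 12 endothelial and stromal genes and 6 of 10 adipose and muscle genes fell, the last at 6.12 to 6.40 in lymphoma nodes against 6.48 to 9.95 in asymptomatic nodes. Markers of neighbouring tissue differed among arrays. The mean of the exocrine pancreas genes was 5.98 to 6.14 in lymphoma nodes, against 5.85 to 6.27 in asymptomatic nodes 1 to 4 and 12.36 and 13.55 in asymptomatic nodes 5 and 6, and the salivary gland genes reached 10.65 in the node of FVB/N mouse 2. In asymptomatic spleens the exocrine pancreas genes were highest in mice 4 and 5, at 7.72 and 8.90. Of 5 erythroid genes, 1 rose in each tissue. Their mean was 9.75 in the node of asymptomatic mouse 6, against 5.86 to 6.42 in the other asymptomatic nodes. It was 5.53 to 9.88 in lymphoma spleens, against 7.42 to 8.89 in asymptomatic spleens. The node of asymptomatic mouse 1 had the lowest mean correlation with its group (0.926, against 0.933 to 0.955 for the others). The part of these shifts in the results was not tested, and in whole tissue fewer cells of a type and less RNA per cell cannot be told apart. The spleen array of lymphoma mouse 4 is labelled lymphoma by title and description but has the status code of the FVB/N arrays; it was kept as lymphoma.

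With lymphoma, the SWI/SNF motor Smarca4, its scaffold Smarcc1, the Polycomb methyltransferase Ezh2, the deacetylase Hdac8 and the DNA methyltransferase Dnmt1 were higher than in asymptomatic mice in both tissues. The alternative motor Smarca2, the alternative Polycomb methyltransferase Ezh1 and the demethylase Kdm5b were lower in both. In spleen 12 of the 83 genes rose (14.5%, against 8.58% of all genes) and 7 fell (8.43%, against 7.25%). In node 19 rose (22.9%, against 11.6% of all genes) and 14 fell (16.9%, against 12.5%). A filter on low genes kept 74 of the 83 genes and 9969 of all genes. Of the 74, 22 rose and 10 fell in spleen, and 28 rose and 14 fell in node. Of the 9969, 2064 rose and 1590 fell in spleen, and 2772 rose and 2126 fell in node. In both tissues the share that rose stayed larger than that of all kept genes, but the share that fell was smaller. Without the filter, the median fitted difference was 0.04 in spleen and -0.02 in node, against -0.03 and -0.02 over all genes. Both signs turned with batch as a term, which gave medians of -0.03 in spleen and 0.19 in node, against -0.02 and 0.07 over all genes. The 11 genes that rose in both tissues were Dnmt1, Ezh2, Hdac6, Hdac8, Kdm1a, Prmt1, Prmt5, Smarca4, Smarcad1, Smarcc1 and Smarce1, and the 4 that fell in both were Ezh1, Kdm5b, Setd6 and Smarca2. No gene was called in opposite directions, 4 were called in spleen alone and 18 in node alone, and 46 in neither. These counts across the tissues were not made over all genes, and both tissues came from the same mice. The spleen count depended on single mice, with 11 calls without FVB/N mouse 3, 12 without lymphoma mouse 2, 31 without lymphoma mouse 4, 29 without asymptomatic mouse 5 or 6 and 40 without lymphoma mouse 5. The node count was 17 without asymptomatic mouse 4 and 21 without lymphoma mouse 1. Without asymptomatic mouse 4, 6 rose and 11 fell in node, so that most calls were of lower genes, and without FVB/N mouse 3, 5 rose and 6 fell in spleen. Counts over all genes moved as well. Without asymptomatic mouse 4, 1538 of all genes rose and 1646 fell in node. In spleen 1343 rose and 1151 fell without FVB/N mouse 3, and 2609 rose and 2478 fell without lymphoma mouse 5. Leaving out a mouse removes both of its arrays. With quantile normalization 6 rose and 9 fell in spleen, and 15 rose and 14 fell in node, and in batch A alone 11 rose and 12 fell in spleen.

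**Figure D1:**
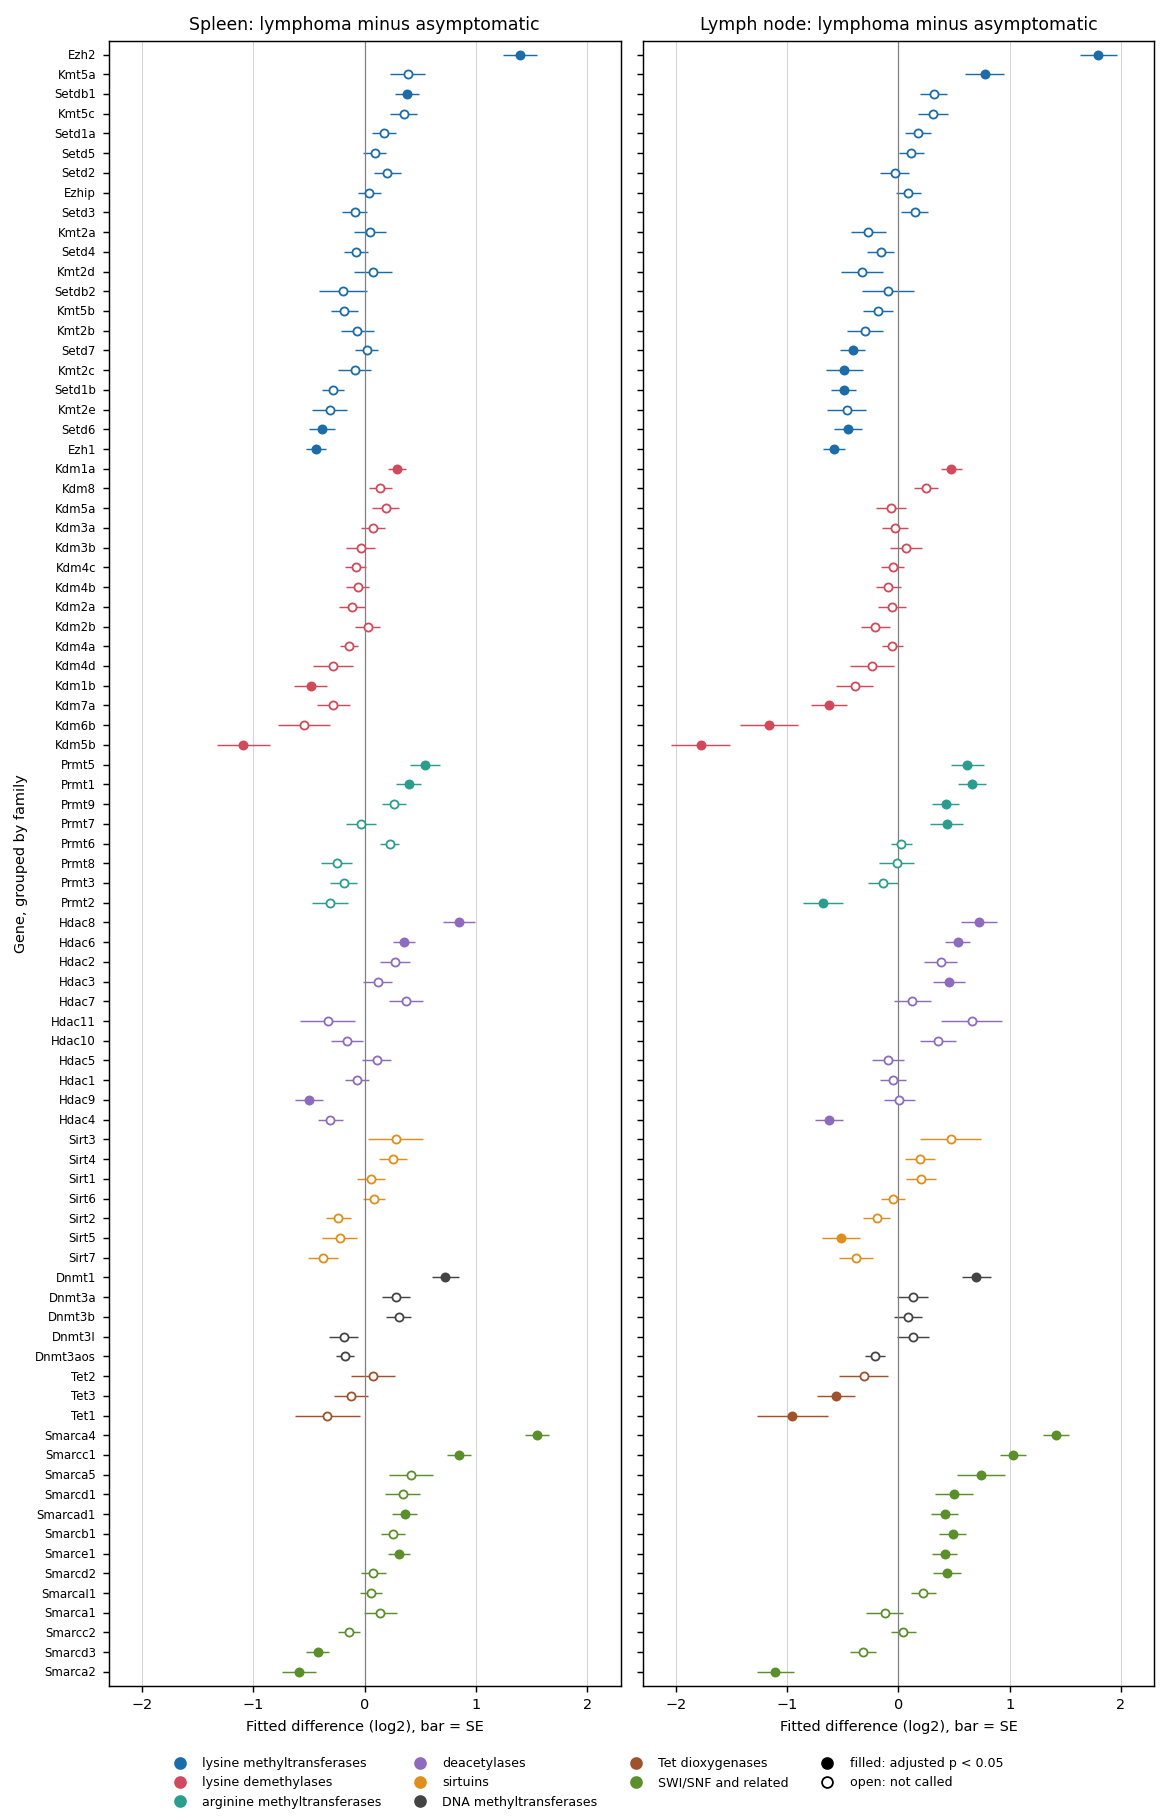
Fitted difference, lymphoma minus asymptomatic (log2, x axis; bars, standard error), for each of the 83 genes (y axis, grouped by family) in spleen (left) and lymph node (right). Filled points passed an adjusted p of 0.05; Ezh2 (1.40 and 1.80) and Smarca4 (1.55 and 1.42) lie farthest right and Kdm5b (-1.09 and -1.78) farthest left in both.

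Among the 21 lysine methyltransferase genes there were 2 higher and 2 lower in spleen, and 2 higher and 5 lower in node. These and the other family counts were not tested against the shares of all genes given above. The promoters of Ezh2 and Ezh1, and of the SWI/SNF motors Smarca4 and Smarca2 described further on, are shown because the members of each pair moved in opposite directions. They were read from RefSeq (GRCm38.p6), from 250 bases before to 50 after the start, at chr6:47594981-47595280 for Ezh2 and chr11:101226414-101226713 for Ezh1 on the minus strand, and at chr9:21615919-21616218 for Smarca4 and chr19:26604910-26605209 for Smarca2 on the plus strand. Capitals mark a match on either strand to the E2F letters TTTCCCGC, TTTGGCGC, TTTCGCGC or TTTGCCGC, to CCAAT, or to the cell cycle element TTTGAA.
Ezh2: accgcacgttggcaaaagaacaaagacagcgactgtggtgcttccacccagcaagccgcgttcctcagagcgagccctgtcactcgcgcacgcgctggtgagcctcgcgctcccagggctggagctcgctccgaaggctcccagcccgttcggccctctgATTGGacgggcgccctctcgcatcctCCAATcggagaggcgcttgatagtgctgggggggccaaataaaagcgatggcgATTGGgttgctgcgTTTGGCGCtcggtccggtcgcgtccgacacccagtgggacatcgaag
Ezh1: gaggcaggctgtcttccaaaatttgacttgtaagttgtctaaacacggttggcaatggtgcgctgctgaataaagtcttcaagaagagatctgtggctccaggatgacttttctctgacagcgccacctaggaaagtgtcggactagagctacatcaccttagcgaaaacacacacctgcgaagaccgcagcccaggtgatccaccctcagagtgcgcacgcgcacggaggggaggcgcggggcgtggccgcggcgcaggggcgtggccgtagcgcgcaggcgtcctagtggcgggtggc
Smarca4: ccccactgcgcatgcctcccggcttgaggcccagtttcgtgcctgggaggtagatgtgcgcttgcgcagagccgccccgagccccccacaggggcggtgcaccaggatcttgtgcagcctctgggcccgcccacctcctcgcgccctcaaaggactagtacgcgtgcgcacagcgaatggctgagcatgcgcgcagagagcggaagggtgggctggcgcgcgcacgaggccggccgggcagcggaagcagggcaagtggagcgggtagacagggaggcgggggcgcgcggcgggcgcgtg
Smarca2: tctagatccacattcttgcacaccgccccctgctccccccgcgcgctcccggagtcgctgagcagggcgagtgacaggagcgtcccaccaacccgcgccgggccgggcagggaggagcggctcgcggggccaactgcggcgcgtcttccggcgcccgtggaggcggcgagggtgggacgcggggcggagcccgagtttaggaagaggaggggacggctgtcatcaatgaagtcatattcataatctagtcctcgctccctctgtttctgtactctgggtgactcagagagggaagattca
The Ezh2 window held TTTGGCGC beginning 3 bases after the start. It held CCAAT beginning at -64 and, on the opposite strand, at -90 and -11, counted in bases from the start. None of these letters was in the other windows, from which nothing follows about the factors. Of 32851 promoters in the table, 2.26% held an E2F match, 37.4% CCAAT and 17.9% TTTGAA, on either strand. Of the 95 promoters found for 71 of the 83 genes, 5 held an E2F match (5.26%; in Dnmt1, Ezh2, Kmt5c, Sirt4 and Smarcd1), 36 held CCAAT (37.9%) and 10 held TTTGAA (10.5%).

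Ezh2, the catalytic subunit of Polycomb repressive complex 2, had 9.76, 10.89 and 11.14 in lymphoma spleens, against 8.42, 8.97 and 9.50 in asymptomatic spleens and 9.12, 9.09 and 9.16 in FVB/N spleens (lowest, median and highest of 6, and all 3 FVB/N values). Ezh2 had 10.07, 10.91 and 11.10 in lymphoma nodes, against 8.66, 8.92 and 9.33 in asymptomatic nodes and 9.08, 9.34 and 9.54 in FVB/N nodes. Every lymphoma array was above every array of the other groups of its tissue. The fitted difference, lymphoma minus asymptomatic, was 1.40 (SE 0.15, adjusted p = 5.78e-07) in spleen and 1.80 (SE 0.17, adjusted p = 3.82e-08) in node. Within batches A and B the measured differences were 1.66 and 1.71 in spleen and 1.86 and 1.60 in node. Batch B was lower than batch A among asymptomatic spleens (8.42 to 8.60 against 9.33 to 9.50), and lymphoma mice 4 and 5, of batch B, had the lowest Ezh2 among lymphoma mice in both tissues.

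Ezh1, the related enzyme better known from resting cells, had 8.20, 8.41 and 8.88 in lymphoma spleens, against 9.18, 9.26 and 9.40 in asymptomatic spleens and 9.28, 9.38 and 9.27 in FVB/N spleens. In nodes Ezh1 had 8.23, 8.54 and 8.90 with lymphoma, against 8.71, 9.12 and 9.28 in asymptomatic mice and 9.58, 8.80 and 9.20 in FVB/N mice. Lymphoma and asymptomatic arrays did not overlap in spleen and overlapped in node. Fitted, Ezh1 had -0.44 (SE 0.09, adjusted p = 0.00114) in spleen and -0.58 (SE 0.10, adjusted p = 0.000117) in node; the measured differences were -0.82 and -0.53. The fitted value was -0.74 without lymphoma mouse 5 in spleen and -0.38 without lymphoma mouse 1 in node, and both stayed past the threshold. A fit to batch A alone did not pass in node (-0.43, adjusted p = 0.124). Within an array, Ezh2 minus Ezh1 had a median of 2.44 in lymphoma spleens, against -0.24 in asymptomatic and -0.15 in FVB/N spleens. In nodes the median was 2.40 with lymphoma, against -0.25 in asymptomatic and 0.34 in FVB/N mice; only its change between groups can be read, since probe sets differ in brightness.

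Kmt5a, which places a single methyl group on histone H4 during the cell cycle, had 9.53, 9.77 and 10.39 in lymphoma nodes, against 8.21, 9.28 and 9.44 in asymptomatic nodes and 9.33, 9.51 and 8.996 in FVB/N nodes. Lymphoma and asymptomatic arrays did not overlap in either tissue. The fitted difference was 0.39 (SE 0.16, adjusted p = 0.11) in spleen and 0.77 (SE 0.18, adjusted p = 0.00205) in node, so that the spleen value did not pass, whereas its batch-term value did (0.67, adjusted p = 0.00333). The node call was lost on leaving out any 1 of lymphoma mouse 1 and asymptomatic mouse 4 (adjusted p = 0.0746 to 0.0931). Setdb1, which silences repeats by methylating histone H3, rose in spleen (0.38, SE 0.11, adjusted p = 0.0154) and had 0.31 (SE 0.12, adjusted p = 0.0576) in node. Its spleen call was lost on leaving out any 1 of lymphoma mouse 2 and FVB/N mouse 3 (adjusted p = 0.0615 to 0.0728).

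Setd6, which methylates a non-histone NF-kB subunit, had a fitted difference of -0.38 (SE 0.11, adjusted p = 0.0219) in spleen and -0.45 (SE 0.13, adjusted p = 0.0104) in node. Its spleen call was lost on leaving out any 1 of lymphoma mouse 2, asymptomatic mice 2, 4 and 6 and FVB/N mouse 1 (adjusted p = 0.0573 to 0.135), and its node call on leaving out any 1 of asymptomatic mice 1 and 6 (adjusted p = 0.0551 to 0.0585). The node call was also lost with batch as a term, at -0.27 (adjusted p = 0.0535), and in each batch alone, at -0.38 (adjusted p = 0.122) in batch A and -0.16 (adjusted p = 0.484) in batch B. Setd1b, the enzyme of a promoter-bound histone H3 methyltransferase complex, had 8.87, 9.17 and 9.62 in lymphoma nodes, against 8.96, 9.24 and 10.18 in asymptomatic nodes and 10.47, 9.49 and 9.68 in FVB/N nodes. The lymphoma and asymptomatic ranges overlapped and the measured difference was -0.14, against a fitted one of -0.49 (SE 0.11, adjusted p = 0.00201) and a batch-term value of -0.14 (adjusted p = 0.503). In spleen Setd1b had a fitted difference of -0.29 (SE 0.10, adjusted p = 0.0561) and a larger measured one, of -0.44.

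Kmt2c and Setd7, which methylate histone H3 at enhancers and at single residues of many proteins, passed in node alone. Kmt2c had -0.49 (SE 0.17, adjusted p = 0.0359) and a batch-term value of -0.32 (adjusted p = 0.104), and its call was lost on leaving out any 1 of lymphoma mice 1 and 2, asymptomatic mice 1, 3, 4 and 5 and FVB/N mouse 3 (adjusted p = 0.0518 to 0.339). Setd7 had -0.41 (SE 0.11, adjusted p = 0.00826) and a batch-term value of -0.19 (adjusted p = 0.0951), and its call was lost on leaving out any 1 of lymphoma mouse 1 and asymptomatic mice 2 and 4 (adjusted p = 0.0505 to 0.0779). The genes of the family that did not pass lay from -0.31 to 0.39 in spleen and from -0.47 to 0.31 in node, among them Kmt2a, Kmt2b, Kmt2d, Kmt2e, Setd2 and Ezhip, an inhibitor of Polycomb repressive complex 2 that the symbol rule brings in.

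**Figure D2:**
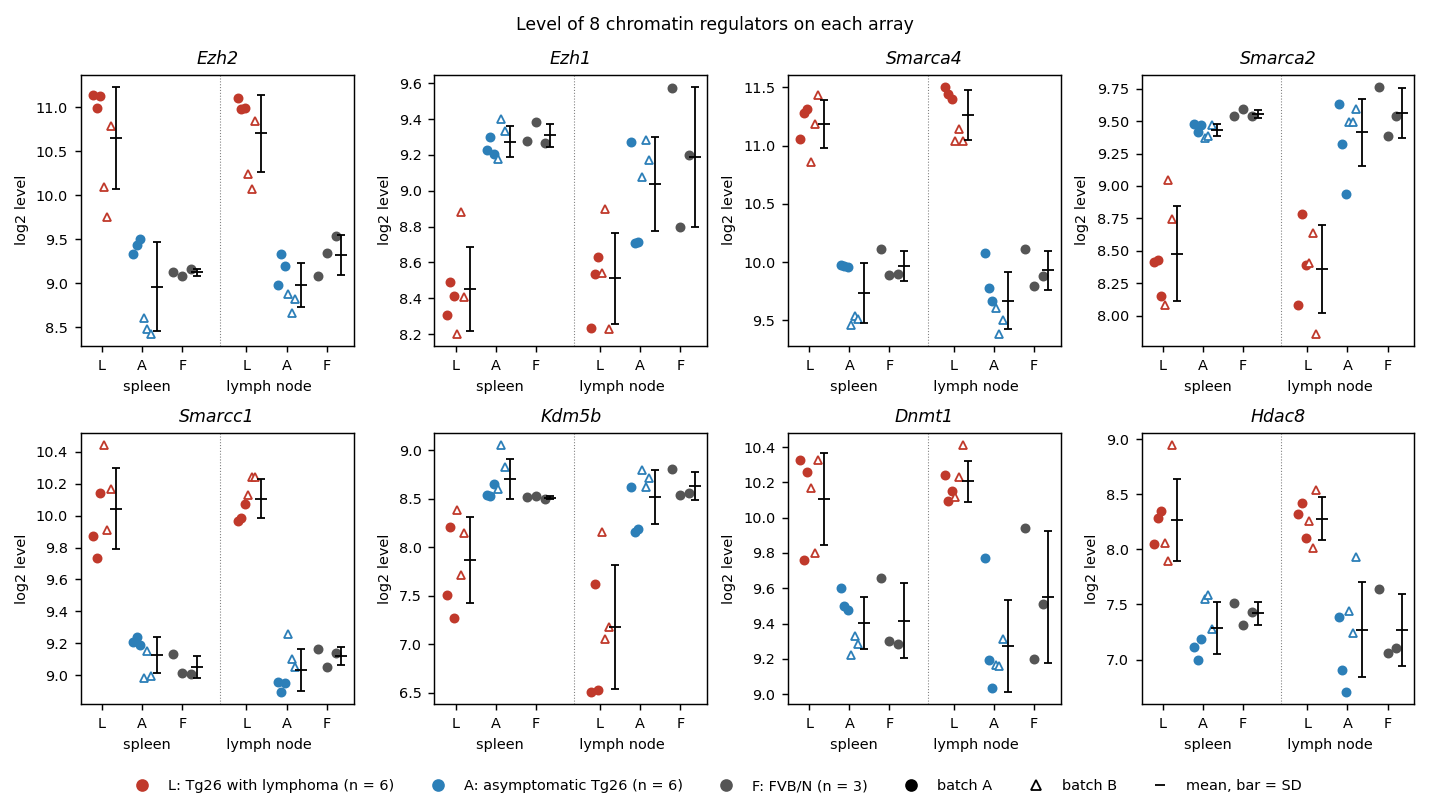
Log2 level (y axis) of 8 of the genes on each array, by group (x axis: lymphoma, asymptomatic and FVB/N, in spleen and then in lymph node), with filled circles for batch A, open triangles for batch B and the mean with its SD. Lymphoma arrays of Ezh2, Smarca4, Smarcc1, Dnmt1 and Hdac8 lie above all asymptomatic arrays and those of Smarca2 below them in both tissues; Ezh1 and Kdm5b overlap in node.

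Among 15 lysine demethylase genes there were 1 higher and 2 lower in spleen, and 1 higher and 3 lower in node. Kdm5b, which takes methyl marks of active promoters off histone H3, had 7.27, 7.93 and 8.39 in lymphoma spleens, against 8.53, 8.63 and 9.06 in asymptomatic spleens and 8.52, 8.53 and 8.49 in FVB/N spleens. In nodes Kdm5b had 6.51, 7.11 and 8.16 with lymphoma, against 8.16, 8.62 and 8.80 in asymptomatic mice and 8.80, 8.54 and 8.56 in FVB/N mice. The arrays did not overlap in spleen, and in node lymphoma mouse 4, the highest of its group in both tissues, reached the asymptomatic range. The fitted difference was -1.09 (SE 0.24, adjusted p = 0.00201) in spleen and -1.78 (SE 0.26, adjusted p = 1.9e-05) in node, and the measured differences within batches A and B were -0.92 and -0.75 in spleen and -1.44 and -1.25 in node. A fit to batch B alone did not pass in spleen (-0.75, adjusted p = 0.122).

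Kdm6b, which removes the repressive methyl mark that Ezh2 places, had 7.54, 8.15 and 8.53 in lymphoma nodes, against 8.48, 8.92 and 9.58 in asymptomatic nodes and 9.65, 8.62 and 8.86 in FVB/N nodes. The lymphoma and asymptomatic ranges overlapped. In spleen it had 7.96, 8.41 and 8.86 with lymphoma, against 8.90, 9.21 and 9.51 in asymptomatic mice and 9.59, 10.73 and 10.77 in FVB/N mice, with no overlap. Its fitted difference was -0.54 (SE 0.24, adjusted p = 0.133) in spleen and -1.16 (SE 0.26, adjusted p = 0.0019) in node; the spleen value did not pass, but its batch-term value did (-0.78, adjusted p = 0.00904). Kdm7a, which takes repressive methyl marks off histone H3, had 8.46, 9.51 and 9.93 in lymphoma nodes, against 9.56, 10.44 and 10.71 in asymptomatic nodes and 10.74, 10.30 and 10.62 in FVB/N nodes, with overlap. Its fitted difference was -0.28 (SE 0.15, adjusted p = 0.225) in spleen and -0.63 (SE 0.16, adjusted p = 0.00661) in node, with a batch-term value of -0.76 (adjusted p = 0.000492) in spleen. The node call of Kdm7a was lost on leaving out any 1 of lymphoma mouse 1, asymptomatic mice 2 and 4 and FVB/N mouse 3 (adjusted p = 0.053 to 0.0714).

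Kdm1a and Kdm1b, the demethylases of the amine oxidase type, gave calls of opposite sign. Kdm1a (LSD1), which works in the CoREST corepressor complex, had 8.80, 8.96 and 9.24 in lymphoma nodes, against 8.23, 8.44 and 8.70 in asymptomatic nodes and 8.78, 8.55 and 8.65 in FVB/N nodes, with no overlap between lymphoma and asymptomatic arrays. Its fitted difference was 0.29 (SE 0.08, adjusted p = 0.0198) in spleen and 0.47 (SE 0.09, adjusted p = 0.000532) in node. The spleen call was lost on leaving out any 1 of lymphoma mice 1 and 2 and FVB/N mouse 3 (adjusted p = 0.0775 to 0.131), and the value was 0.44 without lymphoma mouse 5. Kdm1b had -0.49 (SE 0.15, adjusted p = 0.0256) in spleen, a call lost on leaving out any 1 of lymphoma mice 1, 2, 3, 4 and 5 and asymptomatic mice 2, 3 and 6 (adjusted p = 0.0591 to 0.201), and -0.39 (SE 0.16, adjusted p = 0.0879) in node. The demethylases that did not pass lay from -0.54 to 0.19 in spleen and from -0.39 to 0.25 in node. Among them Kdm4b had no overlap in spleen, at 8.05 to 8.47 with lymphoma against 8.51 to 8.61 in asymptomatic mice.

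Among 8 arginine methyltransferase genes there were 2 higher and 0 lower in spleen, and 4 higher and 1 lower in node. Prmt1, the main maker of asymmetric dimethylarginine, had 9.23, 9.43 and 9.93 in lymphoma spleens, against 8.38, 8.80 and 9.43 in asymptomatic spleens and 8.44, 8.43 and 8.31 in FVB/N spleens. In nodes Prmt1 had 8.87, 9.40 and 10.03 with lymphoma, against 8.02, 8.51 and 8.97 in asymptomatic mice and 8.48, 8.11 and 8.19 in FVB/N mice. Lymphoma and asymptomatic ranges overlapped in both tissues. Fitted, Prmt1 rose by 0.40 (SE 0.11, adjusted p = 0.018) in spleen and 0.66 (SE 0.13, adjusted p = 0.000358) in node, and its batch-term value in spleen was 0.64 (adjusted p = 0.000264). In spleen the measured differences within batches A and B were 0.94 and 0.33, the call was lost on leaving out any 1 of lymphoma mice 1 and 2, asymptomatic mice 2 and 3 and FVB/N mouse 3 (adjusted p = 0.0666 to 0.238), and the value was 0.72 without lymphoma mouse 5 and 0.63 without asymptomatic mouse 6. The node call was lost without asymptomatic mouse 4 (adjusted p = 0.074).

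Prmt5, which makes symmetric dimethylarginine on histones and splicing proteins, had 9.76, 10.29 and 10.77 in lymphoma spleens, against 9.22, 9.75 and 9.999 in asymptomatic spleens and 9.85, 9.74 and 9.53 in FVB/N spleens. In nodes Prmt5 had 9.999, 10.26 and 10.57 with lymphoma, against 9.19, 9.34 and 9.96 in asymptomatic mice and 10.22, 9.67 and 9.53 in FVB/N mice. The lymphoma and asymptomatic arrays overlapped in spleen and not in node. Fitted, it rose by 0.54 (SE 0.13, adjusted p = 0.00632) in spleen and 0.62 (SE 0.15, adjusted p = 0.00343) in node. Its spleen call was lost on leaving out any 1 of lymphoma mice 1 and 2 and FVB/N mouse 3 (adjusted p = 0.0602 to 0.103) and its node call on leaving out any 1 of lymphoma mouse 1 and asymptomatic mice 1 and 4 (adjusted p = 0.0509 to 0.152).

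Prmt2, another member of the family, had 6.19, 6.45 and 7.44 in lymphoma nodes, against 6.76, 7.38 and 7.87 in asymptomatic nodes and 7.27, 6.55 and 7.01 in FVB/N nodes, with overlap, and fell in node (-0.68, SE 0.18, adjusted p = 0.00618), a call lost without lymphoma mouse 1 (adjusted p = 0.0555). Prmt7, which makes monomethylarginine, had 0.43 (SE 0.15, adjusted p = 0.0389) in node, but 12 of the 15 omissions of a single mouse ended that call, on leaving out any 1 of lymphoma mice 1, 2, 4 and 6, asymptomatic mice 1, 2, 3, 4 and 5 and FVB/N mice 1, 2 and 3 (adjusted p = 0.0958 to 0.645). Prmt9, which methylates a splicing factor, had 0.42 (SE 0.12, adjusted p = 0.0112) in node, lost on leaving out any 1 of asymptomatic mouse 4 and FVB/N mouse 2 (adjusted p = 0.0756 to 0.149). Prmt3, Prmt6 and Prmt8 were not called in either tissue.

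Among 11 zinc-dependent deacetylase genes there were 2 higher and 1 lower in spleen, and 3 higher and 1 lower in node. Hdac8, a class I enzyme known for acting on cohesin, had 7.89, 8.17 and 8.95 in lymphoma spleens, against 6.99, 7.23 and 7.58 in asymptomatic spleens and 7.51, 7.31 and 7.43 in FVB/N spleens. In nodes Hdac8 had 8.01, 8.29 and 8.54 with lymphoma, against 6.71, 7.31 and 7.93 in asymptomatic mice and 7.64, 7.06 and 7.10 in FVB/N mice. Lymphoma arrays lay above all others of the same tissue. Fitted, Hdac8 rose by 0.85 (SE 0.14, adjusted p = 0.000182) in spleen and 0.73 (SE 0.16, adjusted p = 0.00157) in node, and the spleen value was 1.35 without lymphoma mouse 5. The measured differences within batches A and B were 1.13 and 0.83 in spleen and 1.28 and 0.73 in node, and a fit to batch B alone passed in neither (0.83, adjusted p = 0.0845, and 0.73, adjusted p = 0.0768).

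Hdac6, a mainly cytoplasmic tubulin deacetylase, had 7.80, 8.13 and 8.46 in lymphoma nodes, against 7.41, 7.61 and 7.75 in asymptomatic nodes and 7.90, 7.79 and 7.70 in FVB/N nodes. Lymphoma and asymptomatic arrays did not overlap in node and overlapped in spleen. Fitted, Hdac6 rose by 0.35 (SE 0.10, adjusted p = 0.0175) in spleen and 0.53 (SE 0.11, adjusted p = 0.001) in node. Its spleen call was lost on leaving out any 1 of lymphoma mouse 2 and FVB/N mouse 3 (adjusted p = 0.0807 to 0.0877) and its node call without asymptomatic mouse 4 (adjusted p = 0.0639). The other class I enzymes, Hdac1, Hdac2 and Hdac3, are cores of large corepressor complexes. Hdac1 had 10.44, 10.68 and 10.81 in lymphoma spleens, against 10.41, 10.69 and 10.89 in asymptomatic spleens, and fitted differences of -0.07 (SE 0.11, adjusted p = 0.756) in spleen and -0.05 (SE 0.12, adjusted p = 0.826) in node. The measured difference of Hdac1 in node was 0.21, of opposite sign to the fitted one, and its other probe set gave 0.26.

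Hdac2 had 9.04, 9.54 and 9.71 in lymphoma spleens, against 8.84, 9.02 and 9.05 in asymptomatic spleens and 8.99, 9.05 and 9.07 in FVB/N spleens, and fitted differences of 0.27 (SE 0.14, adjusted p = 0.194) in spleen and 0.38 (SE 0.15, adjusted p = 0.0707) in node. Its batch-term values passed in both tissues (0.51, adjusted p = 0.00211 in spleen and 0.46, adjusted p = 0.00373 in node). Hdac3 had 9.33, 10.004 and 10.43 in lymphoma nodes, against 8.62, 9.29 and 10.14 in asymptomatic nodes and 10.06, 10.54 and 9.84 in FVB/N nodes, with overlap, and fitted differences of 0.12 (SE 0.13, adjusted p = 0.626) in spleen and 0.46 (SE 0.14, adjusted p = 0.0231) in node. The node call of Hdac3 was lost on leaving out any 1 of lymphoma mouse 1, asymptomatic mice 2 and 4 and FVB/N mouse 2 (adjusted p = 0.07 to 0.159).

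The class IIa enzymes Hdac4 and Hdac9, which bind transcription factors such as Mef2, were each called lower in a single tissue. The measured difference of Hdac4 was -0.37 in spleen and -0.30 in node. Hdac4 had 7.89, 8.004 and 8.15 in lymphoma nodes, against 8.15, 8.26 and 8.71 in asymptomatic nodes and 8.88, 8.18 and 8.42 in FVB/N nodes, with no overlap between lymphoma and asymptomatic arrays. It fell in node (-0.62, SE 0.12, adjusted p = 0.000617; batch-term value -0.30, adjusted p = 0.0414) and had -0.31 (SE 0.11, adjusted p = 0.0643) in spleen. Hdac9 had 6.46, 6.68 and 7.39 in lymphoma spleens, against 7.75, 7.89 and 8.02 in asymptomatic spleens and 7.58, 7.60 and 7.61 in FVB/N spleens, with no overlap, and fell in spleen (-0.50, SE 0.12, adjusted p = 0.00677; batch-term value -1.12, adjusted p = 9.26e-05). The spleen value of Hdac9 was -0.98 without lymphoma mouse 3, -0.82 without lymphoma mouse 4, -1.39 without lymphoma mouse 5 and -0.82 without asymptomatic mouse 6. In node Hdac9 had a measured difference of -0.68 and a fitted one of 0.01 (SE 0.14, adjusted p = 0.984).

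Hdac5, Hdac7, Hdac10 and Hdac11 were not called in either tissue. Hdac11, the single class IV enzyme, spread from 6.47 to 8.87 among lymphoma spleens and from 6.79 to 9.37 among lymphoma nodes, with mouse 2 the highest in both.

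Among 7 sirtuins, deacetylases that consume NAD, there were 0 higher and 0 lower in spleen, and 0 higher and 1 lower in node; by limma, 2 in spleen had an unadjusted p under 0.05. Sirt5, a mitochondrial enzyme, had 6.51, 6.75 and 6.93 in lymphoma nodes, against 6.49, 7.08 and 7.54 in asymptomatic nodes and 7.33, 6.78 and 6.87 in FVB/N nodes, with overlap. It had -0.52 (SE 0.17, adjusted p = 0.029) in node, with a batch-term value of -0.30 (adjusted p = 0.0867). The call was lost on leaving out any 1 of lymphoma mouse 1 and asymptomatic mouse 1 (adjusted p = 0.115 to 0.439), and the value was -0.79 without asymptomatic mouse 4. Sirt1, the best studied nuclear member, had 8.71, 9.12 and 9.33 in lymphoma spleens, against 8.52, 8.93 and 9.30 in asymptomatic spleens and 9.13, 9.42 and 9.54 in FVB/N spleens, and fitted differences of 0.06 (SE 0.12, adjusted p = 0.832) in spleen and 0.20 (SE 0.14, adjusted p = 0.335) in node. The sirtuins that did not pass lay from -0.37 to 0.28 in spleen and from -0.38 to 0.47 in node. Among them Sirt7 had no overlap in spleen, at 8.46 to 9.24 with lymphoma against 9.54 to 9.89 in asymptomatic mice.

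Among 5 genes with a Dnmt symbol there were 1 higher and 0 lower in spleen, and 1 higher and 0 lower in node. Dnmt1, which copies methylation onto newly made DNA, had 9.76, 10.21 and 10.33 in lymphoma spleens, against 9.22, 9.40 and 9.60 in asymptomatic spleens and 9.66, 9.30 and 9.29 in FVB/N spleens. In nodes Dnmt1 had 10.09, 10.19 and 10.41 with lymphoma, against 9.03, 9.18 and 9.77 in asymptomatic mice and 9.94, 9.20 and 9.51 in FVB/N mice. Lymphoma arrays lay above all others of the same tissue. Fitted, Dnmt1 rose by 0.73 (SE 0.12, adjusted p = 9.77e-05) in spleen and 0.70 (SE 0.13, adjusted p = 0.000291) in node. The measured differences within batches A and B were 0.59 and 0.82 in spleen and 0.83 and 1.04 in node, and a fit to batch A alone did not pass in spleen (0.59, adjusted p = 0.0781).

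Dnmt3a and Dnmt3b set new methylation. Dnmt3a had 8.10, 8.60 and 8.93 in lymphoma spleens, against 8.02, 8.22 and 8.43 in asymptomatic spleens and 8.15, 8.15 and 8.01 in FVB/N spleens, and fitted differences of 0.28 (SE 0.13, adjusted p = 0.149) in spleen and 0.13 (SE 0.14, adjusted p = 0.59) in node. Dnmt3b had 6.77, 6.89 and 7.26 in lymphoma spleens, against 6.53, 6.69 and 6.78 in asymptomatic spleens and 6.80, 6.82 and 6.90 in FVB/N spleens, and fitted differences of 0.30 (SE 0.11, adjusted p = 0.0679) in spleen and 0.09 (SE 0.12, adjusted p = 0.69) in node. Neither passed, nor did the inactive cofactor Dnmt3l or Dnmt3aos, an antisense RNA gene.

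Among the 3 Tet genes there were 0 higher and 0 lower in spleen, and 0 higher and 2 lower in node. Tet1 had 7.01, 7.86 and 9.11 in lymphoma nodes, against 7.47, 7.74 and 8.93 in asymptomatic nodes and 8.66, 7.30 and 8.17 in FVB/N nodes, with overlap. Its measured difference was 0.14 and its fitted one -0.95 (SE 0.32, adjusted p = 0.0324), of opposite sign, with a batch-term value of 0.14 (adjusted p = 0.761). Of the 15 omissions of a single mouse, 12 ended the Tet1 call, on leaving out any 1 of lymphoma mice 1, 2, 3, 4, 5 and 6, asymptomatic mice 1, 2, 4, 5 and 6 and FVB/N mouse 2 (adjusted p = 0.0523 to 0.643), at values of -1.07 to -0.17. Tet3 had 8.62, 8.87 and 9.18 in lymphoma nodes, against 8.68, 8.92 and 9.68 in asymptomatic nodes and 9.65, 8.70 and 9.09 in FVB/N nodes, with overlap, a fitted difference of -0.56 (SE 0.17, adjusted p = 0.0162) and a batch-term value of -0.10 (adjusted p = 0.683). The Tet3 call was lost on leaving out any 1 of asymptomatic mice 1 and 4 (adjusted p = 0.0764 to 0.152), and held with batch and neighbouring-tissue lists as terms. Tet2, often mutated in human blood cancers, had 7.07, 7.80 and 8.41 in lymphoma spleens, against 7.69, 8.04 and 8.21 in asymptomatic spleens and 8.13, 8.32 and 8.20 in FVB/N spleens, and fitted differences of 0.08 (SE 0.20, adjusted p = 0.857) in spleen and -0.31 (SE 0.22, adjusted p = 0.344) in node.

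**Figure D3:**
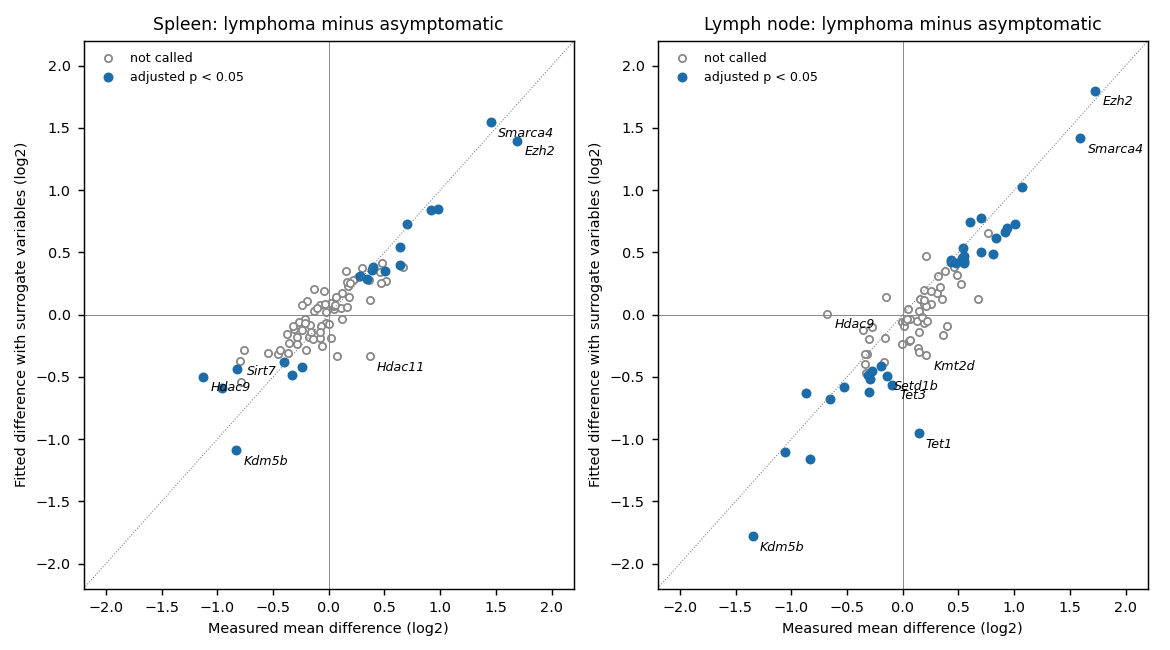
Fitted difference (log2, y axis) against measured difference of group means (log2, x axis), lymphoma minus asymptomatic, for the 83 genes in spleen (left) and lymph node (right), with filled points past an adjusted p of 0.05 and a line of equal values. Ezh2 and Smarca4 lie at the upper right of both panels, whereas Tet1 in node lies at a measured 0.14 and a fitted -0.95 and Hdac9 in node at -0.68 and 0.01.

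Among the 13 Smarc genes there were 4 higher and 2 lower in spleen, and 8 higher and 1 lower in node. Smarca4 had 10.86, 11.23 and 11.44 in lymphoma spleens, against 9.46, 9.75 and 9.97 in asymptomatic spleens and 10.12, 9.89 and 9.89 in FVB/N spleens. In nodes Smarca4 had 11.04, 11.27 and 11.51 with lymphoma, against 9.38, 9.63 and 10.08 in asymptomatic mice and 10.12, 9.79 and 9.88 in FVB/N mice. Every lymphoma array lay above every other array of its tissue. Fitted, Smarca4 rose by 1.55 (SE 0.11, adjusted p = 1.23e-09) in spleen and 1.42 (SE 0.12, adjusted p = 9.62e-09) in node. The measured differences within batches A and B were 1.25 and 1.66 in spleen and 1.61 and 1.58 in node.

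Smarca2, the motor that can take the place of Smarca4, had 8.08, 8.42 and 9.05 in lymphoma spleens, against 9.37, 9.44 and 9.48 in asymptomatic spleens and 9.54, 9.59 and 9.54 in FVB/N spleens. In nodes Smarca2 had 7.86, 8.40 and 8.78 with lymphoma, against 8.94, 9.50 and 9.63 in asymptomatic mice and 9.76, 9.38 and 9.54 in FVB/N mice. Every lymphoma array lay below every other array of its tissue. Fitted, Smarca2 had -0.59 (SE 0.15, adjusted p = 0.00917) in spleen and -1.11 (SE 0.17, adjusted p = 3.08e-05) in node, with a batch-term value of -0.95 (adjusted p = 2.26e-05) in spleen. The spleen call was lost on leaving out any 1 of lymphoma mouse 2 and FVB/N mouse 3 (adjusted p = 0.0657 to 0.0675), and the value was -0.91 without lymphoma mouse 5. A fit to batch B alone did not pass in spleen (-0.79, adjusted p = 0.066). Within an array, Smarca4 minus Smarca2 had a median of 2.74 in lymphoma spleens, against 0.32 in asymptomatic and 0.36 in FVB/N spleens, and of 2.84 in lymphoma nodes, against 0.28 in asymptomatic and 0.35 in FVB/N nodes.

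Smarcc1 (BAF155), on which the complex is built, had 9.73, 10.03 and 10.44 in lymphoma spleens, against 8.98, 9.17 and 9.24 in asymptomatic spleens and 9.13, 9.01 and 9.01 in FVB/N spleens. In nodes Smarcc1 had 9.97, 10.10 and 10.24 with lymphoma, against 8.90, 9.004 and 9.26 in asymptomatic mice and 9.16, 9.05 and 9.14 in FVB/N mice. Lymphoma arrays lay above all others of the same tissue. Fitted, Smarcc1 rose by 0.84 (SE 0.11, adjusted p = 5.08e-06) in spleen and 1.03 (SE 0.12, adjusted p = 8.61e-07) in node, while its paralog Smarcc2 had -0.14 (SE 0.10, adjusted p = 0.402) in spleen and 0.04 (SE 0.11, adjusted p = 0.845) in node. Over the 15 omissions of a single mouse and the 10 other settings, Ezh2, Smarca4 and Smarcc1 kept their calls in both tissues.

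The other Smarc calls were smaller. Smarce1, a DNA-binding SWI/SNF subunit, had 0.31 (SE 0.10, adjusted p = 0.0357) in spleen and 0.41 (SE 0.11, adjusted p = 0.00728) in node, and its calls were lost on leaving out any 1 of lymphoma mice 1, 2 and 6, asymptomatic mice 2 and 3 and FVB/N mouse 3 (adjusted p = 0.053 to 0.197) in spleen and on leaving out any 1 of lymphoma mouse 1 and asymptomatic mouse 4 (adjusted p = 0.0565 to 0.0795) in node. Smarcad1, a remodeller outside the SWI/SNF complexes, had 0.36 (SE 0.11, adjusted p = 0.0268) in spleen and 0.41 (SE 0.12, adjusted p = 0.0145) in node, and its calls were lost on leaving out any 1 of lymphoma mouse 2, asymptomatic mouse 4 and FVB/N mice 1 and 3 (adjusted p = 0.0579 to 0.115) in spleen and on leaving out any 1 of asymptomatic mice 1 and 4 (adjusted p = 0.0602 to 0.115) in node. Smarcb1, the core subunit lost in rhabdoid tumours, did not overlap in node and had 0.26 (SE 0.11, adjusted p = 0.114) in spleen and 0.49 (SE 0.12, adjusted p = 0.00372) in node; the node call was lost on leaving out any 1 of lymphoma mouse 1, asymptomatic mouse 4 and FVB/N mouse 3 (adjusted p = 0.0624 to 0.261).

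Smarca5, the motor of ISWI remodellers, had 0.75 (SE 0.22, adjusted p = 0.0131) in node, lost on leaving out any 1 of asymptomatic mice 1 and 4 (adjusted p = 0.0763 to 0.146). The accessory subunits Smarcd1 and Smarcd2 had 0.50 (SE 0.17, adjusted p = 0.0343) and 0.44 (SE 0.12, adjusted p = 0.0121) in node. The Smarcd1 call was lost on leaving out any 1 of lymphoma mice 1 and 2, asymptomatic mice 1, 2, 4 and 5 and FVB/N mouse 3 (adjusted p = 0.0546 to 0.224), and that of Smarcd2 without asymptomatic mouse 4 (adjusted p = 0.103). Smarcd3, a subunit known from muscle and neurons, had -0.42 (SE 0.11, adjusted p = 0.0072) in spleen and a batch-term value of -0.24 (adjusted p = 0.199), and was lost on leaving out any 1 of lymphoma mouse 5 and asymptomatic mouse 6 (adjusted p = 0.141 to 0.194).

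Of the 83 genes, 10 have more than 1 probe set. The 3 probe sets of Smarce1 gave measured differences of 0.28 to 0.41 in spleen and 0.48 to 0.56 in node, and the 3 of Tet1 gave 0.11 to 0.26 in node. The pair of Kmt2d gave 0.47 and 0.05 in spleen, and the pair of Setd3 differed in sign there, at -0.07 and 0.15.

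Some calls of lymphoma against asymptomatic mice also ended under settings that kept all mice. With groups alone these were Kdm1b, Setdb1, Smarcd3 and Smarce1 in spleen and Hdac3, Kmt2c, Prmt2, Setd1b, Setd6, Setd7, Sirt5, Tet1 and Tet3 in node. With batch and neighbouring-tissue lists as terms they were Smarcd3 in spleen and Prmt2, Prmt7, Prmt9, Setd7, Sirt5, Smarce1 and Tet1 in node. With quantile normalization they were Hdac6, Kdm1a, Prmt1, Setdb1, Smarcad1 and Smarce1 in spleen and Hdac3, Prmt7, Sirt5, Smarcb1 and Smarcd1 in node.

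Arrays were also compared without a model, and without the filter on low genes. In spleen 6 genes had every lymphoma array above every asymptomatic array (7.23%, against 4.59% of all genes), and 7 every one below (8.43%, against 4.96%). Those above were Dnmt1, Ezh2, Hdac8, Kmt5a, Smarca4 and Smarcc1, and those below Ezh1, Hdac9, Kdm4b, Kdm5b, Kdm6b, Sirt7 and Smarca2. In node 11 were above (13.3%, against 5.04%), namely the 6 of spleen with Hdac6, Kdm1a, Prmt5, Smarcad1 and Smarcb1, and 2 were below (2.41%, against 5.81%), Hdac4 and Smarca2.

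Whether the change with lymphoma differed between the tissues was tested as node minus spleen. By limma, 0 of the 83 genes passed in either direction (0.256% of all genes were called with a higher and 0.316% with a lower value in node), and 9 had an unadjusted p under 0.05. Setd7 had -0.41 in node and 0.02 in spleen (difference -0.43, SE 0.14, adjusted p = 0.173). Hdac9 had 0.01 in node and -0.50 in spleen (difference 0.50, SE 0.17, adjusted p = 0.198). Hdac11 had 0.66 in node and -0.33 in spleen (difference 0.99, SE 0.34, adjusted p = 0.206). The other 6, Hdac10, Prmt7, Smarca2, Smarcd2, Kdm5b and Tet3, had an adjusted p of 0.283 to 0.413. Hdac11 passed without lymphoma mouse 1 (1.43, adjusted p = 0.0454) or asymptomatic mouse 1 (1.18, adjusted p = 0.0338), Hdac9 without asymptomatic mouse 1 (0.81, adjusted p = 0.0418), and Hdac10 with the batch term (0.76, adjusted p = 0.0336). The genes called in a single tissue are thus not shown to differ between spleen and node.

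**Figure D4:**
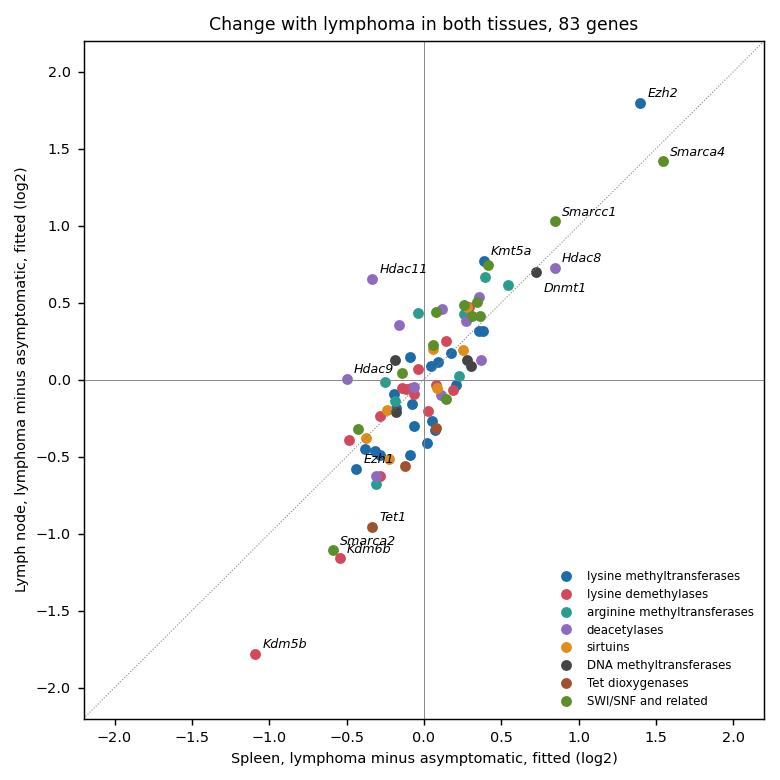
Fitted difference, lymphoma minus asymptomatic (log2), in lymph node (y axis) against spleen (x axis) for the 83 genes, coloured by family, with a line of equal change. Ezh2, Smarca4, Smarcc1, Dnmt1 and Hdac8 lie at the upper right and Kdm5b and Smarca2 at the lower left; the 2 tissues come from the same mice.

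Asymptomatic Tg26 mice gave 1 call against FVB/N mice in each tissue. Markers of other cells differed between these groups as well. In spleen 5 of 10 macrophage genes were higher (median fitted difference 1.14), at mean levels of 8.27 to 8.80 in asymptomatic spleens against 7.24 to 7.35 in FVB/N spleens. In node 0 of them were called (median 0.86), and 5 of 10 adipose and muscle genes were higher (median 1.65), at 6.48 to 9.95 in asymptomatic nodes against 6.17 to 8.59 in FVB/N nodes. Their part in the results was not tested. In spleen 0 of the 83 genes rose (against 0.306% of all genes) and 1 fell (1.20%, against 0.311%), and by limma 7 had an unadjusted p under 0.05. It was Kdm6b, with 8.90, 9.21 and 9.51 in asymptomatic spleens, against 9.59, 10.73 and 10.77 in FVB/N spleens, and no overlap. The fitted difference, asymptomatic minus FVB/N, was -1.06 (SE 0.23, adjusted p = 0.0359), with a batch-term value of -1.13 (adjusted p = 0.12). The call was lost on leaving out any 1 of lymphoma mouse 5, asymptomatic mice 1, 2, 3, 4, 5 and 6 and FVB/N mice 2 and 3 (adjusted p = 0.0506 to 0.454). In node Kdm6b had -0.05 (SE 0.25, adjusted p = 0.951).

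In node 17 of the 83 genes had an unadjusted p under 0.05 by limma, a count not made over all genes. After adjustment 0 rose (against 1.34% of all genes) and 1 fell (1.20%, against 0.592%). It was Setd1b, with 8.96, 9.24 and 10.18 in asymptomatic nodes, against 10.47, 9.49 and 9.68 in FVB/N nodes, and the ranges overlapped. It had -0.40 (SE 0.11, adjusted p = 0.0499), with a batch-term value of -0.33 (adjusted p = 0.702) and, with the mouse as a replicate block, -0.41 (adjusted p = 0.0611). The call was lost on leaving out any 1 of lymphoma mice 1, 2, 3, 5 and 6, asymptomatic mice 2, 3, 4 and 6 and FVB/N mice 1, 2 and 3 (adjusted p = 0.0548 to 0.394). Without asymptomatic mouse 1 the count in node was 4. The median fitted difference of the 83 genes was -0.01 in spleen and -0.14 in node, against 0.02 in each over all genes.

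The comparison of lymphoma with FVB/N mice shares the lymphoma arrays with the first comparison, and its values are given beside it. In spleen 13 genes rose (15.7%, against 7.1% of all genes) and 6 fell (7.23%, against 5.25%), and in node 7 rose (8.43%, against 8.59%) and 16 fell (19.3%, against 7.98%). The spleen count was 8 without lymphoma mouse 1 or FVB/N mouse 3, 12 without FVB/N mouse 2, 29 without lymphoma mouse 4 and 39 without lymphoma mouse 5. The node count was 14 without lymphoma mouse 1 and 15 without lymphoma mouse 2 or FVB/N mouse 3. With quantile normalization 7 rose and 8 fell in spleen, and 4 rose and 12 fell in node. Of all genes, 1172 rose and 942 fell in spleen, and 1356 rose and 1432 fell in node, with that setting. The balance in node turned with batch as a term, where 17 rose and 11 fell, and in batch A alone, where 11 rose and 9 fell. It also turned with the filter on low genes, where 21 rose and 17 fell of the 74 kept. Over all genes, batch as a term gave 2234 higher and 2251 lower in node, and batch A alone 1789 and 1786. The filter gave 2247 higher and 1787 lower of the 9969 genes kept. In spleen 15 rose and 15 fell with batch as a term, and 10 rose and 12 fell with groups alone. Ezh2 had 1.57 (SE 0.18, adjusted p = 3.51e-06) in spleen and 1.67 (SE 0.20, adjusted p = 2.61e-06) in node. Smarca4 had 1.49 (SE 0.13, adjusted p = 1.02e-07) in spleen and 1.36 (SE 0.14, adjusted p = 4.41e-07) in node. Every lymphoma array of both genes lay above every FVB/N array.

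Kdm5b had -1.17 (SE 0.29, adjusted p = 0.00773) in spleen, where groups alone gave -0.64 (adjusted p = 0.112), and -2.24 (SE 0.31, adjusted p = 1.7e-05) in node. Kdm6b had -1.60 (SE 0.29, adjusted p = 0.000476) in spleen and -1.21 (SE 0.31, adjusted p = 0.00872) in node. Dnmt1 passed in spleen (0.83, SE 0.14, adjusted p = 0.000316) and not in node (0.39, SE 0.16, adjusted p = 0.101), where its batch-term value passed, at 0.69 (adjusted p = 0.00323), and lymphoma and FVB/N arrays did not overlap. Among the genes called lower in node were the large methyltransferases Kmt2a, Kmt2b, Kmt2c and Kmt2e, with Tet1 and Tet3, and most of these calls were lost with batch as a term. Kmt2a had -0.61 (SE 0.19, adjusted p = 0.031) and a batch-term value of -0.13 (adjusted p = 0.69), and 10 of the 15 omissions of a single mouse ended its call, on leaving out any 1 of lymphoma mice 1, 2, 3, 5 and 6, asymptomatic mice 1, 2, 3 and 4 and FVB/N mouse 3 (adjusted p = 0.0544 to 0.313). Kmt2b had -0.61 (SE 0.19, adjusted p = 0.0319) and a batch-term value of -0.09 (adjusted p = 0.809), and was lost on leaving out any 1 of lymphoma mouse 2, asymptomatic mice 1 and 4 and FVB/N mice 1 and 3 (adjusted p = 0.0508 to 0.27). Kmt2c had -0.64 (SE 0.20, adjusted p = 0.0295) and a batch-term value of -0.47 (adjusted p = 0.0728), and was lost on leaving out any 1 of lymphoma mice 1 and 2, asymptomatic mice 1 and 4 and FVB/N mice 1 and 3 (adjusted p = 0.0553 to 0.247). Kmt2e had -0.74 (SE 0.21, adjusted p = 0.0163), kept its call with batch as a term and was lost without lymphoma mouse 2 (adjusted p = 0.132) and with groups alone, at -0.41 (adjusted p = 0.118).

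Tet1 had -1.26 (SE 0.38, adjusted p = 0.026) in node against FVB/N mice and a batch-term value of 0.07 (adjusted p = 0.917), of opposite sign, and 9 of the 15 omissions ended its call, on leaving out any 1 of lymphoma mice 1, 2, 3, 4, 5 and 6, asymptomatic mice 2 and 6 and FVB/N mouse 3 (adjusted p = 0.0515 to 0.659). Tet3 had -0.72 (SE 0.20, adjusted p = 0.0151) and a batch-term value of -0.25 (adjusted p = 0.405), and was lost on leaving out any 1 of lymphoma mouse 2 and FVB/N mouse 1 (adjusted p = 0.073 to 0.0842).

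Partners of these enzymes outside the symbol rule were counted by list, lymphoma against asymptomatic, and the named ones were called in both tissues. Of all genes, 8.58% had risen and 7.25% had fallen in spleen, and 11.6% had risen and 12.5% had fallen in node. The list counts were not tested against these shares. Phf1, Cbx7, Nsd2, Uhrf1, Sap30, Bcl11b and Bcl7a kept their calls in both tissues in each of 25 settings, and each other named partner lost its call in at least 1 of them in spleen. The least stable in spleen were Zbtb33, Hat1, Chd3, Nsd3 and Smyd3, called in 16, 17, 17, 18 and 18 of the 25 settings. In node these were called in 15, 23, 18, 24 and 22. Of 9 partners of Ezh2 in Polycomb repressive complex 2, 2 had risen and 2 had fallen in spleen, and 2 had risen and 2 had fallen in node. Phf19 and Mtf2, which bring the complex to its targets, were both higher. Phf19 had 0.61 (SE 0.14, adjusted p = 0.00342) in spleen and 1.21 (SE 0.15, adjusted p = 2.98e-06) in node. Mtf2 had 0.49 (SE 0.11, adjusted p = 0.00323) in spleen and 0.93 (SE 0.13, adjusted p = 6.54e-06) in node. Phf1, of the same family, fell, with -1.05 (SE 0.12, adjusted p = 1.71e-06) in spleen and -1.18 (SE 0.14, adjusted p = 7.49e-07) in node, as did the accessory subunit Aebp2, with -0.60 (SE 0.18, adjusted p = 0.0207) in spleen and -1.08 (SE 0.19, adjusted p = 0.000212) in node. Of 14 genes of Polycomb repressive complex 1, none had risen and 2 had fallen in spleen, and 2 had risen and 4 had fallen in node. Cbx7, which reads the Polycomb mark, fell, with -1.17 (SE 0.16, adjusted p = 1.22e-05) in spleen and -1.35 (SE 0.18, adjusted p = 4.07e-06) in node.

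Of 17 other lysine methyltransferases and their partners, 3 had risen and 2 had fallen in spleen, and 9 had risen and 2 had fallen in node. Nsd2, which methylates histone H3 along transcribed genes, was at 9.31 ± 0.35 in lymphoma spleens and 7.72 ± 0.10 in asymptomatic spleens, and at 9.39 ± 0.25 in lymphoma nodes and 7.73 ± 0.17 in asymptomatic nodes (SD, n = 6 each). It rose by 1.41 (SE 0.16, adjusted p = 1.15e-06) in spleen and 1.68 (SE 0.18, adjusted p = 2.07e-07) in node. Wdr5, a shared subunit of Kmt2 complexes, was higher in both tissues (0.42 in spleen and 0.50 in node), and Nsd3 and Smyd3 were lower (-0.34 and -0.30 in spleen, and -0.77 and -0.54 in node). Of 10 partners in DNA methylation, 2 had risen and none had fallen in spleen, and 5 had risen and 2 had fallen in node. Uhrf1, which brings Dnmt1 to newly copied DNA, was at 9.86 ± 0.55 in lymphoma nodes and 7.67 ± 0.25 in asymptomatic nodes (SD, n = 6 each), and rose by 1.53 (SE 0.19, adjusted p = 4.25e-06) in spleen and 2.27 (SE 0.21, adjusted p = 4.81e-08) in node. Zbtb33, which binds methylated DNA, rose too (0.41 in spleen and 0.43 in node).

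Of 12 acetyltransferases, 1 had risen and none had fallen in spleen, and 1 had risen and 2 had fallen in node. Hat1, which acetylates newly made histone H4, was higher in both tissues (0.49 in spleen and 0.80 in node). Of 16 genes of deacetylase complexes, 2 had risen and 1 had fallen in spleen, and 3 had risen and 1 had fallen in node. The Sin3 subunit Sap30 rose by 0.97 (SE 0.21, adjusted p = 0.00172) in spleen and 1.75 (SE 0.23, adjusted p = 3.79e-06) in node, and the CoREST gene Rcor2 rose as well (0.53 in spleen and 0.61 in node). Chd3, a NuRD motor, had -0.98 (SE 0.15, adjusted p = 4.03e-05) in spleen and -1.34 (SE 0.16, adjusted p = 1.59e-06) in node, but batch-term values of -0.51 (adjusted p = 0.17) in spleen and -0.41 (adjusted p = 0.215) in node. Of 18 further SWI/SNF subunits, 6 had risen and 2 had fallen in spleen, and 7 had risen and 2 had fallen in node. Higher in both tissues were Bcl7a (0.77 in spleen and 1.32 in node), Phf10 (0.72 in spleen and 0.93 in node) and Actl6a (0.48 in spleen and 0.85 in node); Phf10 in node had a batch-term value of 0.34 (adjusted p = 0.0931). Bcl11b, a SWI/SNF subunit that is also a T cell gene of the marker list above, fell, with -2.06 (SE 0.19, adjusted p = 8.29e-08) in spleen and -2.95 (SE 0.21, adjusted p = 1.57e-09) in node.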

How the data were processed

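Spleen and lymph node RNA of 15 mice was measured on 30 arrays. The deposited log2 values are the authors' fRMA output (a robust multi-array summary with fixed reference parameters), as the design text says; software versions are not given in the sources used here. Of 35557 probe sets, 35556 had values, 21789 carried a single gene symbol and 1621 several, which named no gene. The highest-mean probe set of each symbol left 19938 genes. limma 3.58.1 in R 4.3.3 fitted the 6 groups with 6 surrogate variables, computed by iteratively re-weighted surrogate variable analysis, since the design text names that method; p-values were adjusted over all genes. The fitting code was tested on simulated data.

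The genes, partner lists and marker lists were chosen with earlier results of these data known, so no list is independent evidence. Array values were given for up to 3 genes per family with the largest mean fitted difference in lymphoma among those called in either tissue with the same measured sign in both batches, for 14 genes named in the rule (Ezh1, Ezh2, Dnmt1, Dnmt3a, Dnmt3b, Tet1, Tet2, Tet3, Hdac1, Hdac2, Hdac3, Sirt1, Smarca4, Smarca2) and for calls against FVB/N; others were added after their values were seen. Both tissues came from the same mice, per the labels; deviations from group means correlated between the tissues of a mouse at 0.29 to 0.68 in lymphoma, 0.14 to 0.50 in asymptomatic and -0.01 to 0.05 in FVB/N mice. Alternatives were batch as a term, groups alone, neighbouring-tissue markers, each batch alone, the mouse as a block, probe set averaging, a filter on low genes, quantile normalization, fewer surrogate variables and each mouse left out. The number of arrays limits the precision.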

Additional observations from a re-analysis of the deposited data

Results flagged for a closer look

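Within groups of 6 arrays, 9 values stood apart from their group by Dixon's test in 108 groups examined; chance alone gives about 1 in 20. In asymptomatic nodes, mouse 1 accounted for 5 of them: Setd1b at 10.18 (the other mice 8.96 to 9.32), Prmt5 at 9.96 (9.19 to 9.45), Hdac4 at 8.71 (8.16 to 8.31), Tet1 at 8.93 (7.47 to 7.98) and Tet3 at 9.68 (8.68 to 8.98). Kmt5a was at 8.21 in the node of asymptomatic mouse 2, against 9.19 to 9.44 in the other asymptomatic nodes. In lymphoma mice, Hdac2 was at 9.87 in the node of mouse 6 (9.25 to 9.40 in the others), Dnmt3a at 8.21 in the node of mouse 1 (8.67 to 8.85) and Tet3 at 9.45 in the spleen of mouse 6 (8.56 to 8.77).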

How the results depend on the processing

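Counts are of the 83 genes called. The filter on low genes kept 74 of them, with p adjusted over 9969 genes. For lymphoma against asymptomatic in spleen (19), batch as a term gave 34, batch with neighbouring tissue lists 38, batch B alone 8, the filter on low genes 32 and fewer surrogate variables 36, and leaving out a mouse gave 11 to 40. In node (33), batch A alone gave 20 and leaving out a mouse 17 to 41. For lymphoma against FVB/N in spleen (19) the same settings, in that order and without batch B, gave 30, 33, 35 and 31, and leaving out a mouse 8 to 39; in node (23) the filter on low genes gave 38 and leaving out a mouse 14 to 33. For asymptomatic against FVB/N in spleen (1), batch as a term, groups alone, batch with neighbouring lists and batch A alone gave 0, and leaving out a mouse 0 to 1. In node (1) these settings, probe set averaging, the filter on low genes, quantile normalization and the replicate block gave 0, and leaving out a mouse 0 to 4. For the tissue difference (0) batch as a term gave 1 and leaving out a mouse 0 to 2. With the mouse as a replicate block (correlation 0.118) lymphoma against asymptomatic gave 19 in spleen and 32 in node. Sign changed for 8 called results. For lymphoma against asymptomatic these were Setd1b in node (batch A alone, 0.017), Smarcd3 in spleen (batch A alone, 0.002) and Tet1 in node (batch as a term 0.14, groups alone 0.14, batch B alone 0.33). Against FVB/N they were Tet1 in node (batch as a term 0.068, groups alone 0.013), Sirt6 in spleen (groups alone, -0.32), Kmt2a and Kmt2b in node (batch A alone, 0.024 and 0.0035) and Setd4 in node (batch as a term 0.11, groups alone 0.024, batch A alone 0.17). The causes were not tested, except that single batches hold fewer arrays.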
